A study of Sus scrofa domesticus with 150 samples.

Results

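The genes described here are members of the hypoxia response, the set of genes that cells transcribe more when oxygen is scarce. They were chosen by name from a list of 10 symbols: VEGFA, CA9, ADM, NDRG1, ANKRD37, EGLN3, BNIP3, SLC2A1, PDK1 and PGK1. Of these symbols, 8 had a row in the gene count table, which lists 30461 genes, and 9 rows matched in all because BNIP3 had 2. The second BNIP3 row, with a mean of 0.32 counts per library, passed the filter on low counts in 0 comparisons and is not described further. No row named CA9. SLC2A1 had no row of its own, and the 1 row whose protein match names it carries the name P3H1 in the name column, so that it did not meet the rule. The rows of EGLN3 and PDK1, and the second of BNIP3, had no name in that column and were taken by their protein match alone.

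When oxygen falls, the prolyl hydroxylases that mark the alpha subunits of hypoxia-inducible factor (HIF) for destruction slow down, and the stabilised factor switches on its target genes. The targets include secreted signals to blood vessels, glucose transporters and glycolytic enzymes, brakes on the use of pyruvate in mitochondria, and feedback regulators of the oxygen sensor itself. Full-thickness skin wounds lose their local vessels and fill with oxygen-consuming cells, so these genes are often measured in wound tissue, although most of them also respond to other signals and are used at rest by particular cell types such as keratinocytes.

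RNA was sequenced from 150 libraries of 6 female Yorkshire-mix pigs, each with 12 full-thickness circular excisional wounds that were covered with Telfa Clear and Tegaderm and received no other treatment. The 6 day 0 libraries came from the whole excised skin, 1 from each animal, and are the only controls. After wounding, 1 edge and 1 center biopsy was taken from each of 72 wounds on 14 days. Each day was sampled in 3 animals, at 2 wounds of each animal on 10 days (1 to 7, 9, 11 and 13) and at a single wound of each on the other 4 (15, 16, 19 and 21). Animals 1 to 3 gave the wounds of days 1, 3, 5, 7, 11, 15 and 21, and animals 4 to 6 those of the other days. The samples thus form 29 states of day and location. Because day 0 tissue was the entire excised disc and the later samples were small biopsies, the kind of sample and the wounding cannot be told apart in any comparison with day 0.

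Total counts ranged from 13133379 to 24895572 per library, with a median of 17643938.5, and each of the 8 genes had counts in every library. The lowest count of any of them was 16, for ANKRD37. In marker genes of keratinocytes, 2 libraries of day 3 went against their labels. Replicate 4 of the day 3 center had a mean log2(1 + CPM) of 10.80 over 7 suprabasal keratinocyte markers, against 0.82 to 6.94 in the other 5 libraries of that state, and replicate 6 of the day 3 edge had 1.66, against 9.27 to 11.41. A further 5 libraries stood apart from their replicates, and 21 libraries (15 center and 6 edge) had skeletal muscle markers above the highest day 0 library. Among the 5, replicate 1 of the day 11 center had suprabasal markers of 8.75, against 2.54 to 4.36 in the others of that state. The highest day 1 center library had 10.28, beside a state median of 4.09, and is not among the libraries that stand apart. The tests that rest on the 7 libraries that stand apart are given with and without them. Only some of the correlations are given without them too, and these were added after the data were seen.

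Levels between genes were compared as CPM per kilobase of gene length, and within a gene as CPM, the count scaled to a library total of 1e6. Over all libraries the mean level per kilobase was highest for PGK1 with 150 CPM per kilobase, followed by NDRG1 with 80.1, BNIP3 with 56.2, VEGFA with 22.1, PDK1 with 19.8, ADM with 19.2, EGLN3 with 17.4 and ANKRD37 with 2.86. In day 0 skin PDK1 stood above VEGFA, with 46.8 against 13.0 CPM per kilobase, and ADM was close to ANKRD37, with 4.87 against 3.62.

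The 8 genes did not move together. In the wound center ADM was higher than in day 0 skin on all 14 days and PGK1 on 13, while PDK1 was lower on all 14 and BNIP3 on 12. In total, 34 of 112 center tests (8 genes on 14 days) were higher and 47 lower, beside 29.8% and 29.9% of the tests of all genes, or 59.7% in either direction. At the wound edge 45 of 112 tests were higher than day 0 and 16 lower, beside 22.5%, 20.7% and 43.1% of all. By day, the share of all genes called ranged from 20.7% to 36.3% for a direction in the center and from 5.78% to 29.3% at the edge. A call is an adjusted p below 0.05 in edgeR's quasi-likelihood test of the 2 states, with the Benjamini-Hochberg procedure applied to all genes tested. EGLN3, BNIP3 and NDRG1 lay higher at the edge than in the center for most of the course, and ADM lay lower on the first days. The plot of the levels in each library shows both patterns.

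**Figure D1:**
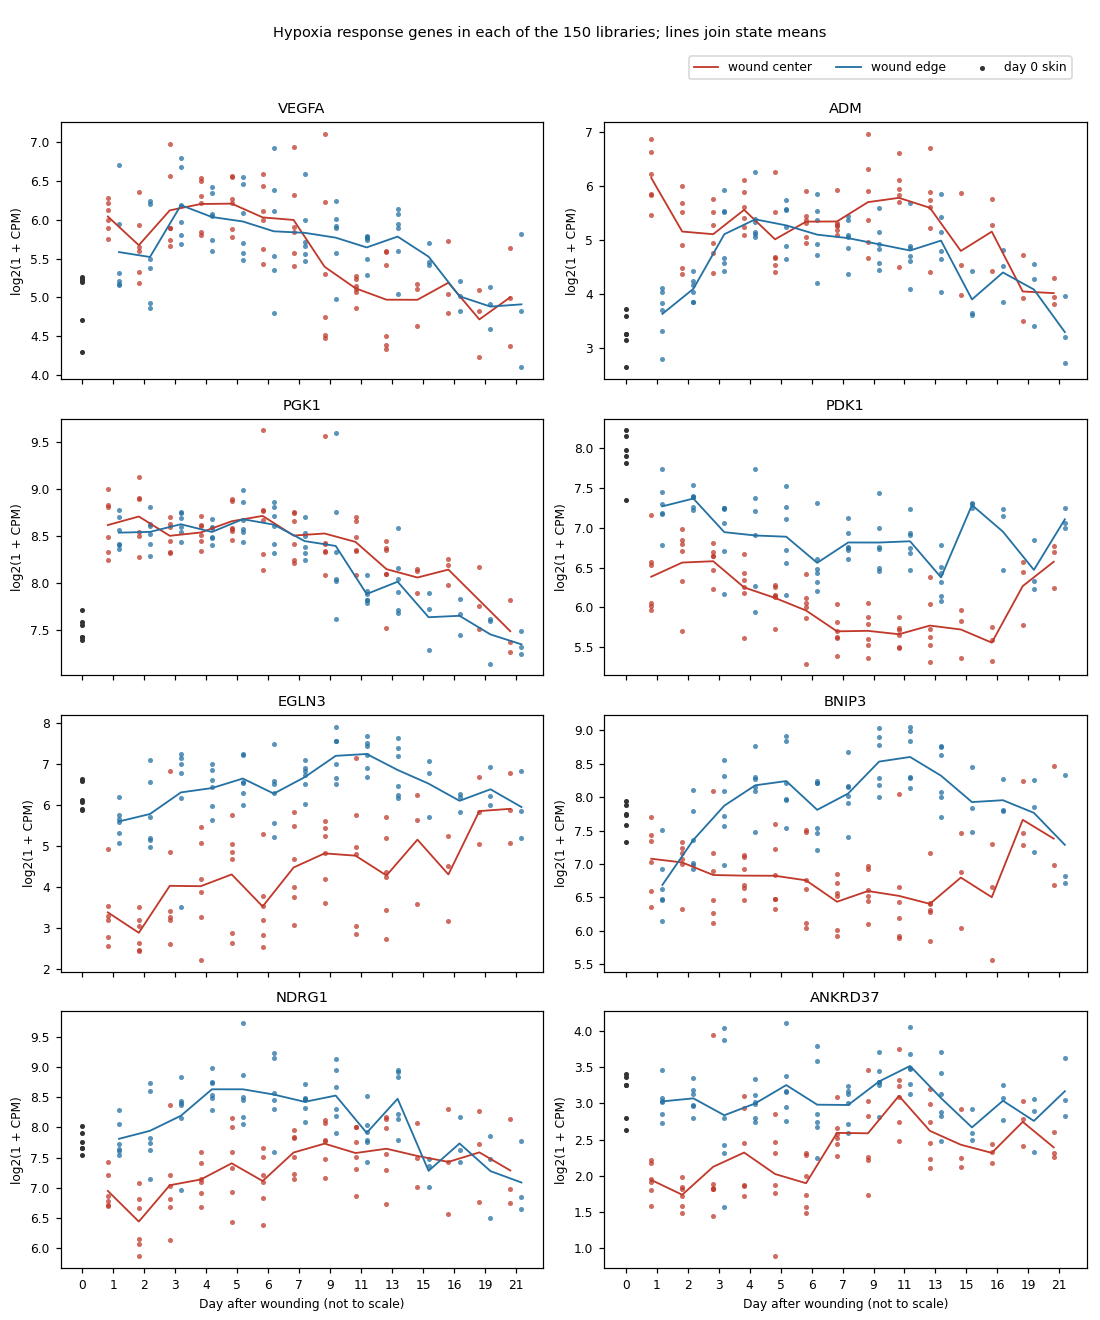
Level of each gene as log2(1 + CPM) in each of the 150 libraries, by day after wounding; points are libraries, lines join the means of the center (red) and edge (blue) states, and black points are the 6 day 0 libraries. EGLN3, BNIP3, NDRG1 and PDK1 ran higher at the edge than in the center for most of the course, while VEGFA and PGK1 ran close together at both locations.

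VEGFA and ADM encode secreted signals. VEGFA, the main growth factor for blood vessels (ENSSSCG00025045013, LUXX01068002.1:422715-437874, minus strand), had a lowest, median and highest level of 18.6, 36.0 and 37.5 CPM in day 0 skin, 52.7, 65.8 and 76.7 CPM in the day 1 center, and 54.0, 74.6 and 93.3 CPM in the day 5 center. All center libraries of these days lay above all day 0 libraries. By day 11 the center values were 28.1, 34.0 and 37.6 CPM, back within the day 0 range apart from the highest. On the log2 scale the center exceeded day 0 by 0.55 to 1.12 on days 1 to 7, and passed the threshold on all 7 days, whereas no center difference from day 9 on did. The largest was on day 5, with 1.12 ± 0.19 (SE, n = 6 libraries each; adjusted p = 0.000126), a 2.18-fold level. The day 2 call (adjusted p = 0.0484) was lost without the libraries that stand apart. The day 9 center was called too without the libraries rich in muscle markers, and with all 150 samples in one fit. With the animal as a block, the center calls of days 2 and 3 were lost. At the edge VEGFA was higher than in day 0 skin on 8 days, days 3 to 13, by 0.75 to 1.16, and with the animal as a block the calls of days 3 and 6 were lost.

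ADM encodes adrenomedullin, a peptide that widens vessels and is among the classical HIF targets (ENSSSCG00025021598, LUXX01024205.1:777395-780038, plus strand). Its level was 5.25, 8.60 and 12.2 CPM (lowest, median and highest) in day 0 skin, 43.4, 65.4 and 117 CPM in the day 1 center and 5.95, 12.7 and 16.3 CPM at the day 1 edge. The day 1 center was thus apart from both, while the day 1 edge overlapped day 0. Against day 0 the center was higher by 2.88 ± 0.28 on day 1 (adjusted p = 3.4e-06), a 7.37-fold level, and by 0.96 ± 0.25 on day 21 (n = 3 center libraries; adjusted p = 0.011). Day 0 had the lowest mean of all 29 states. At the edge ADM was higher than in day 0 skin on 11 days, by 0.76 on day 2 up to 2.20 on day 4, and on days 1, 15 and 21 the difference did not pass the threshold.

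PGK1 and PDK1 act on opposite sides of pyruvate. PGK1, phosphoglycerate kinase, carries out an ATP-making step of glycolysis (ENSSSCG00025036535, LUXX01052206.1:9050-32355, plus strand). It had 167, 179 and 207 CPM in day 0 skin and 307, 422 and 557 CPM in the day 2 center, with no overlap. Center levels were higher than day 0 on 13 days by 0.50 to 1.28, at most 2.43-fold on day 6, and on day 21 the 3 center libraries, with 153, 164 and 225 CPM, were not distinguishable from day 0 (0.15 ± 0.12, adjusted p = 0.344). Edge levels were higher on 11 days by 0.33 to 1.12. The largest center values came from libraries rich in muscle transcripts: 785 CPM in replicate 5 of day 6 and 755 CPM in replicate 5 of day 9, whose skeletal muscle marker means were 11.55 and 10.72, against at most 2.94 and 2.21 in the other libraries of those states. With the muscle-rich libraries left out, PGK1 kept all its calls in both comparisons with day 0, and the day 6 center difference was 0.93 in place of 1.28.

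PDK1, pyruvate dehydrogenase kinase 1, blocks the entry of pyruvate into the mitochondrial citric acid cycle and is a textbook HIF1 target (ENSSSCG00025023256, LUXX01052728.1:343248-386874, plus strand). It went the other way from PGK1. Day 0 skin, with 162, 243 and 296 CPM, had the highest mean of all 29 states, and the gap to the next state, the day 2 edge, was larger than the pooled SD of the 2 states. The day 11 center had 44.1, 50.6 and 57.8 CPM. Center levels were lower than day 0 on all 14 days, with no overlap between the groups on any day, by 1.17 on day 21 to 2.22 on day 11 on the log2 scale (day 11: -2.22 ± 0.12, adjusted p = 4.41e-08, a 4.65-fold lower level). Edge levels were also lower on all 14 days, by 0.63 to 1.39, and 9 of these days were without overlap.

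EGLN3 and BNIP3 belong to oxygen sensing and the removal of mitochondria. EGLN3 is 1 of the prolyl hydroxylases that mark HIF alpha subunits and is itself induced by HIF (ENSSSCG00025067912, LUXX01096806.1:817372-845794, minus strand). Its level was 58.1, 67.8 and 98.96 CPM in day 0 skin, 4.40, 6.22 and 10.4 CPM in the day 2 center and 30.7, 43.4 and 136 CPM at the day 2 edge. The center was apart from both other states, and the edge overlapped day 0. In the center EGLN3 was lower than day 0 on 9 days, most on day 2 with -3.63 ± 0.25 (adjusted p = 1.15e-07), a 12.4-fold lower level, and on days 19 and 21 the differences were -0.06 and 0.04. At the edge it was lower on day 1 (-0.69) and higher on days 7, 9, 11 and 13, by 0.49 to 1.18, with a peak on day 11 of 103, 162 and 206 CPM. With the animal as a block, the edge calls of days 1, 7 and 13 were lost. All EGLN3 edge calls against day 0 were lost with all 150 samples in one fit.

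BNIP3 encodes a mitochondrial protein that recruits the autophagy machinery (ENSSSCG00025058691, LUXX01098468.1:57830-67593, plus strand). Its center means were lowest on days 13 and 7, with 6.40 and 6.44 as log2(1 + CPM), whereas those of EGLN3 were lowest on days 2 and 1, with 2.88 and 3.38. Day 0 skin had 160, 213 and 245 CPM, the day 7 center 59.7, 92.7 and 115 CPM, and the day 11 edge 281, 386 and 530 CPM, so that the 3 states did not overlap. The center was lower than day 0 on 12 days by 0.72 to 1.23, the exceptions being days 19 and 21. The edge was lower on day 1 (-1.06 ± 0.19, adjusted p = 0.000593) and higher on days 5, 9, 11 and 13, by 0.56 to 1.06. With the animal as a block, the edge calls of days 5 and 13 were lost. That of day 5 was also lost without replicate 1, 2, 3 or 5.

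NDRG1 and ANKRD37 are induced by hypoxia in many cell types but have less defined roles. NDRG1, a cytoplasmic protein linked to stress responses and differentiation (ENSSSCG00025053170, LUXX01079738.1:4301952-4356805, minus strand), had 186, 208 and 259 CPM in day 0 skin, 57.2, 85.1 and 134 CPM in the day 2 center, and 310, 398 and 504 CPM at the day 4 edge, with no overlap among the 3 states. In the center it was lower than day 0 on days 1, 2, 4 and 6, by 0.64 to 1.44, and from day 7 on the differences lay between -0.15 and 0.13 and did not pass the threshold. Without the libraries rich in muscle markers, NDRG1 was called in the day 9 center too. At the edge it was higher on days 4 to 7, 9 and 13, by 0.67 to 0.94, and with the animal as a block the calls of days 5 and 6 were lost. ANKRD37, a small ankyrin repeat protein (ENSSSCG00025034407, LUXX01053469.1:3295681-3299894, plus strand), was the least abundant, with 5.23, 8.57 and 9.61 CPM in day 0 skin and 1.79, 2.42 and 2.97 CPM in the day 2 center, again without overlap. It was lower than day 0 in the center on 8 days by 0.60 to 1.88, and at the edge only the day 11 difference of 0.55 passed the threshold, and not with the animal as a block.

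Without overlap between the groups were 65 of the 112 center tests, beside 43.3% of the tests of all genes, and 40 of the 112 edge tests, beside 27.0%. The median log2 difference of the 8 genes was -0.30 in the center and 0.37 at the edge, and that of all genes was -0.02 in both. All comparisons with day 0 share the same 6 control libraries, so the calls are only given side by side. With the animal as a block, 30 tests were higher and 39 lower in the center, and 33 higher and 12 lower at the edge. The 13 center calls lost in this way included BNIP3 (days 1, 3, 15 and 16) and EGLN3 (days 5, 7 and 16), and none was of PDK1. The others were of VEGFA (days 2 and 3), ANKRD37 (days 16 and 21), ADM (day 19) and PGK1 (day 19). The 16 lost at the edge included PDK1 on days 4, 15 and 16 and BNIP3 on days 5 and 13. NDRG1 on days 5 and 6, PGK1 on days 9 and 16 and ADM on day 19 were among them too. No call changed direction in any setting tried.

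**Figure D2:**
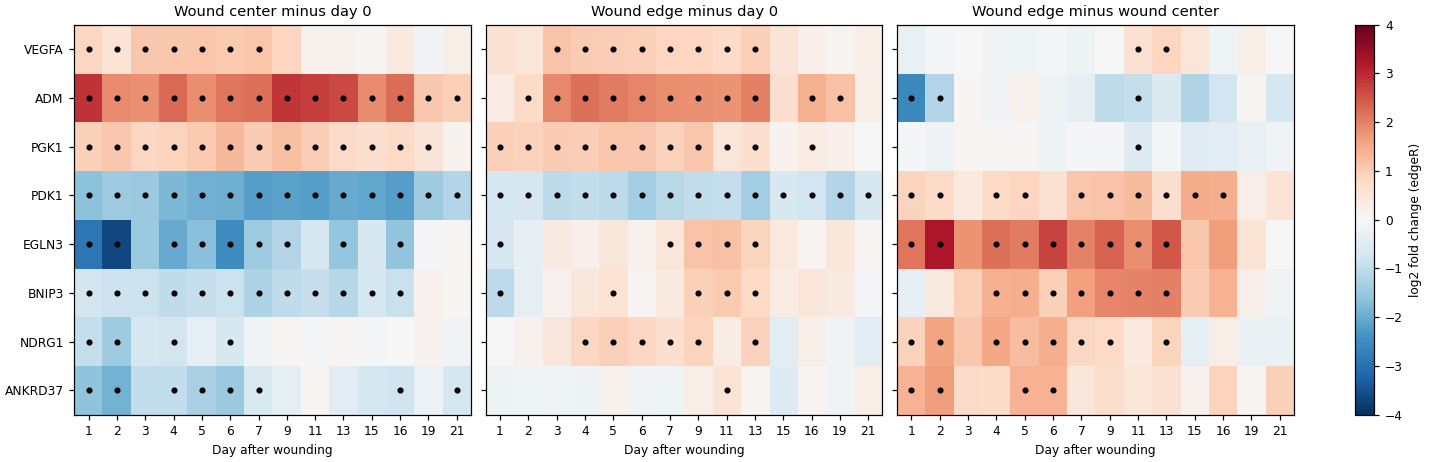
Log2 fold changes of the 8 genes (rows) by day (columns) for wound center minus day 0, wound edge minus day 0 and wound edge minus wound center, colored from blue (lower) to red (higher); black dots mark adjusted p below 0.05. ADM and PGK1 are red and PDK1 is blue against day 0 at both locations, and EGLN3, BNIP3, NDRG1 and ANKRD37 are mostly blue in the center and red in the last panel.

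Edge and center of the same days were then compared directly, a comparison that does not use the day 0 skin. Of 112 tests, 40 were higher at the edge and 4 were lower, beside 12.5% and 11.0% of the tests of all genes (23.5% in either direction), and 34 were without overlap, beside 18.3%. The median difference of the 8 genes was 0.51 on the log2 scale, and that of all genes was -0.02. EGLN3 was higher at the edge on 9 days by 1.86 to 3.25, and on day 2 the difference of 3.25 ± 0.41 was a 9.50-fold level (n = 6 each; adjusted p = 4.61e-05). PDK1 was higher on 10 days by 0.68 to 1.47 and NDRG1 on 8 days by 0.80 to 1.58. BNIP3 was higher on 7 days, all from day 4 to day 13, by 0.97 to 2.02, while on days 1 and 2 its differences of -0.36 and 0.38 did not pass the threshold. ANKRD37 was higher on days 1, 2, 5 and 6, by 1.38 to 1.67. With the 2 wounds of an animal summed, calls of EGLN3 (day 11), BNIP3 (day 6), PDK1 (day 13) and NDRG1 (days 9 and 13) were lost. Without the libraries rich in muscle markers, those of PDK1 on days 4 and 15 and of NDRG1 on day 9 were lost.

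The secreted signals and PGK1 did not share this pattern. ADM was lower at the edge on days 1, 2 and 11, by 2.57, 1.17 and 0.96 on the log2 scale, and the day 1 difference of -2.57 ± 0.28 (adjusted p = 0.000116) was a 5.94-fold lower level without overlap. The day 11 calls of ADM and PGK1 were lost when both wounds of an animal were added into one sample. ADM was called on day 9 too without the 7 libraries that stand apart, with DESeq2 and with all 150 samples in one fit. VEGFA differed on days 11 and 13 only, when it was higher at the edge by 0.62 and 0.86. Its day 13 call was lost without TMM scaling and without replicate 4, 5 or 6, and its day 11 call with all 150 samples in one fit. It was called on day 15 too with DESeq2, and on day 1 without replicate 4. PGK1 was lower at the edge on day 11, by 0.50. The day 11 values of VEGFA, 37.9, 52.9 and 54.5 CPM at the edge against 28.1, 34.0 and 37.6 CPM in the center, did not overlap.

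**Figure D3:**
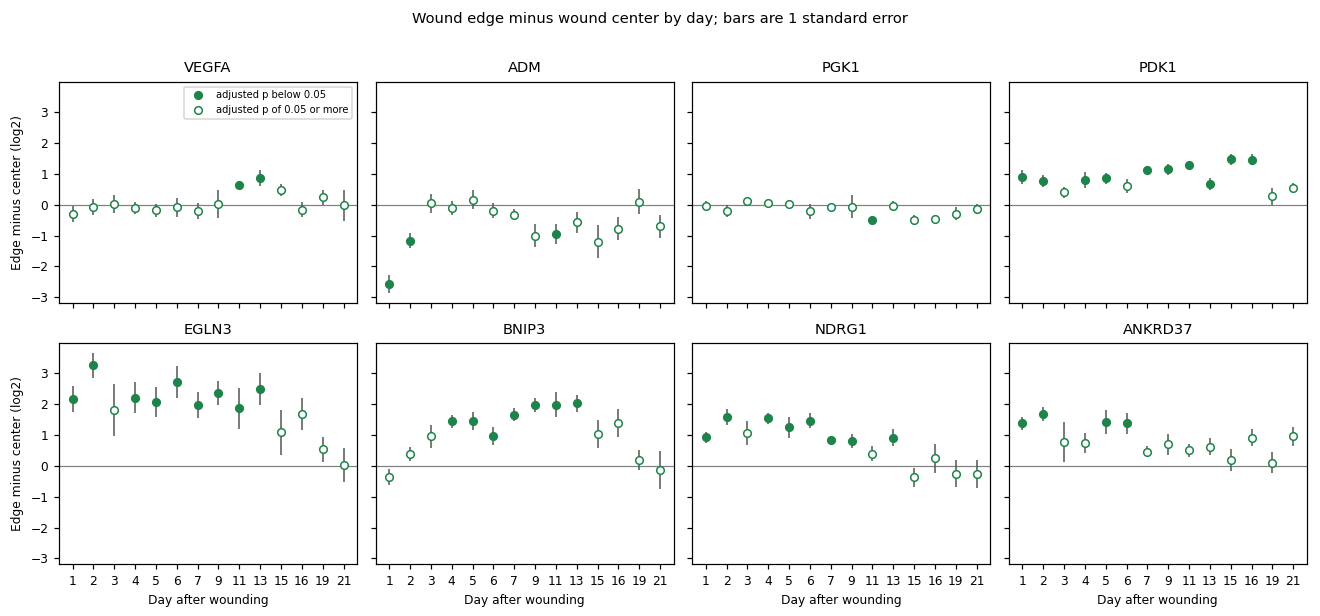
Difference between wound edge and wound center on the log2 scale for each gene by day, with 1 standard error; filled points have an adjusted p below 0.05 (edgeR). EGLN3 reached 3.25 on day 2 and BNIP3 rose to about 2.02 on day 13, whereas ADM was lowest on day 1 with -2.57.

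Averaged over the 14 days, 5 of the 8 genes were higher at the edge and 2 were lower, beside 30.5% and 36.8% of all genes (67.4% in either direction). The mean difference was 1.85 ± 0.17 (SE, 72 libraries per location) for EGLN3, 1.04 ± 0.10 for BNIP3, 0.85 ± 0.06 for PDK1, 0.82 ± 0.10 for ANKRD37, 0.69 ± 0.09 for NDRG1, -0.69 ± 0.10 for ADM and -0.19 ± 0.06 for PGK1. VEGFA, with 0.05 ± 0.09 (adjusted p = 0.646), did not pass the threshold. Within single wounds the edge biopsy was above the center biopsy in 70 of 72 wounds for EGLN3 and for PDK1, in 65 for ANKRD37, 61 for BNIP3, 60 for NDRG1, 39 for VEGFA, 28 for PGK1 and 19 for ADM. The mean over the wounds of an animal was higher at the edge in 6 of 6 animals for EGLN3, PDK1, BNIP3, NDRG1 and ANKRD37 and in 0 of 6 for ADM and PGK1, so these directions were shared by both groups of 3 animals. Without the 7 libraries that stand apart the PGK1 difference was -0.09 ± 0.05 (adjusted p = 0.0729), while the other 6 kept their calls.

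Day 3 was the exception among the days with 6 wounds. In edgeR's test 0 of the 8 genes were called between edge and center, beside 0.0% of the 14581 genes tested, although 3 of the 8 and 1667 of all genes had an unadjusted p below 0.05, and DESeq2 called 0 of the 8 and 1 gene in all. The 2 day 3 libraries that went against their labels entered this test. EGLN3 was 6.83 in replicate 4 of the center on the log2(1 + CPM) scale, against 2.61 to 4.86 in the others, and 3.52 in replicate 6 of the edge, against 6.17 to 7.26. NDRG1 was 8.37 against 6.14 to 7.21 and 6.96 against 8.16 to 8.84 in the same libraries, and BNIP3 and ANKRD37 were displaced the same way. Without the libraries that stand apart, 4 of the 8 genes were called on day 3, namely EGLN3 with 3.36 ± 0.48 (adjusted p = 0.000819), ANKRD37 with 1.92 ± 0.42, NDRG1 with 1.69 ± 0.23 and BNIP3 with 1.53 ± 0.26. Against day 0, the day 3 center was then lower for EGLN3 by 2.74 ± 0.42, for ANKRD37 by 1.84 ± 0.21 and for NDRG1 by 1.08 ± 0.19, and for EGLN3 on day 11 too, and the day 3 edge was higher for EGLN3 and NDRG1 by 0.61 each. Leaving out 2 libraries whose keratinocyte markers went against their labels by itself draws edge and center apart. These day 3 calls are therefore no independent support for a difference. On day 11, replicate 1 of the center had EGLN3 at 7.15 against 2.86 to 5.75 and BNIP3 at 8.04 against 5.89 to 6.65, with suprabasal markers of 8.75 against 2.54 to 4.36.

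The wounds of days 19 and 21 were the other exception. With 3 libraries per state, edgeR called 0 of the 8 genes on both days, beside 0.0% of all genes on day 19 and 0.0684% (10 genes) on day 21. At an unadjusted p below 0.05 there were 0 and 2 of the 8, and 479 and 1269 of all genes, and DESeq2 called 0 of the 8 on both days and 13 and 326 of all genes. The EGLN3 libraries of day 21 had 32.6, 57.8 and 110 CPM in the center and 35.4, 56.9 and 113 CPM at the edge, and a difference of 0.01 ± 0.55 with such a spread does not show that the levels were equal.

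To compare early with late healing, days 1 to 4 were set against days 15 to 21, 2 days from each group of 3 animals in both periods. In the center 3 genes were higher early and 4 lower, beside 30.2% and 27.8% of all genes (57.9% in either direction). VEGFA was higher early by 0.77 ± 0.15, ADM by 0.70 ± 0.20 and PGK1 by 0.45 ± 0.10, and EGLN3 was lower by 1.93 ± 0.39, NDRG1 by 0.92 ± 0.20, ANKRD37 by 0.73 ± 0.23 and BNIP3 by 0.50 ± 0.21 (adjusted p = 0.042). PDK1, with 0.15 ± 0.13, did not pass the threshold. At the edge 4 were higher early, beside 26.0% of all genes, namely PGK1 by 0.81 ± 0.06, NDRG1 by 0.56 ± 0.17, VEGFA by 0.56 ± 0.18 and ADM by 0.43 ± 0.18 (adjusted p = 0.0472), and BNIP3 was lower by 0.47 ± 0.18, beside 21.5% (47.5% in either direction). With each replicate number left out of every state in turn, the 4 lower center calls fell to 1, of EGLN3, without replicate 1 and to 2, of EGLN3 and NDRG1, without replicate 2. The 4 higher edge calls fell to 1, of PGK1, without replicate 2 or 3, and the edge call of ADM held only without replicate 1. The BNIP3 call was lost in the center without replicate 1, 2 or 6 and at the edge without replicate 1 or 4.

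NDRG1 thus had opposite signs at the 2 locations, and the difference between them was tested in a fit of both. The early minus late change in the center minus that at the edge was -1.44 ± 0.27 for NDRG1 (adjusted p = 7.28e-05), -1.53 ± 0.49 for EGLN3 (adjusted p = 0.0152) and -0.33 ± 0.11 for PGK1 (adjusted p = 0.0272), with 3 of 8 genes lower, beside 13.4% of all genes (11.1% were higher and 24.5% in either direction). These calls fell from 3 to 1, of NDRG1, without replicate 1 (EGLN3 adjusted p = 0.133, PGK1 adjusted p = 0.0581) or replicate 3 (0.0836 and 0.221). The EGLN3 call was also lost without replicate 2 and the PGK1 call without replicate 5. ANKRD37 was called too with the wound as a block, and without replicate 4. The sign of the NDRG1 changes was the same in each group of animals: the early minus late difference of state means was -0.41 in animals 1 to 3 and -0.72 in animals 4 to 6 in the center, and 0.82 and 0.78 at the edge. For EGLN3 it was -1.83 and -1.63 in the center and -0.28 and -0.15 at the edge.

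The order of the 29 state means shows where each gene was most abundant. On the log2(1 + CPM) scale VEGFA ran from 4.71 in the day 19 center to 6.21 in the day 5 center, ADM from 3.27 in day 0 skin to 6.15 in the day 1 center, and PGK1 from 7.34 at the day 21 edge to 8.71 in the day 6 center. PDK1 ran from 5.56 in the day 16 center to 7.90 in day 0 skin, and NDRG1 from 6.44 in the day 2 center to 8.63 at the day 4 edge. The day 11 edge was the top state of EGLN3 (7.25), BNIP3 (8.60) and ANKRD37 (3.52), whose lowest states were the day 2 center (2.88), the day 13 center (6.40) and the day 2 center (1.74). Of the 28 pairs of neighbours in each order, 1 was apart by more than the pooled SD for PDK1, day 0 from the day 2 edge, and 1 for NDRG1, and none was for the other 6 genes, so that with these 2 exceptions neighbouring ranks did not differ beyond their spread.

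As a description over the 29 states, EGLN3 had a Pearson r of 0.86 with ANKRD37, 0.84 with BNIP3 and 0.74 with NDRG1, and VEGFA had 0.76 with PGK1. ADM had 0.71 with PGK1 and -0.66 with PDK1. The states share animals and library totals, so these values carry no test. Between EGLN3 and BNIP3, r was 0.93 within the 14 edge states and 0.34 within the 14 center states, and between ADM and NDRG1 it was 0.89 and -0.08. Without the 7 libraries that stand apart the values over 29 states were 0.85 (ANKRD37), 0.85 (BNIP3) and 0.74 (NDRG1) with EGLN3, 0.79 for VEGFA with PGK1, and 0.67 and -0.67 for ADM with PGK1 and PDK1, and EGLN3 with BNIP3 had 0.92 at the edge and 0.40 in the center. Of 13510 genes with a symbol and a mean of at least 1 CPM, the most similar over the 29 states were MCFD2 for VEGFA (0.906), APOLD1 for ADM (0.912), TPM3 for PGK1 (0.955), NFIX for PDK1 (0.973), KLK8, a protease of the upper epidermis, for EGLN3 (0.928), ECH1 for BNIP3 (0.889), OSBPL3 for NDRG1 (0.838) and CLEC20A for ANKRD37 (0.870), and without the 7 libraries the r of ECH1 with BNIP3 was 0.863 and those of the other pairs were 0.848 to 0.973. For the mean of the 8 standardised profiles, similar genes were CHI3L2 (0.869), LTF (0.837), PFKP (0.804) and CXH4ORF3 (0.795), with 0.796 to 0.866 without the 7 libraries.

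Cell types changed between the same states. The mean of the suprabasal keratinocyte markers (7 of 8 found, none at 0 throughout any state) was 10.89 to 12.22 in the day 0 libraries, 0.82 to 11.32 in the center libraries and 1.66 to 12.14 in the edge libraries on the log2(1 + CPM) scale, with medians of 11.82, 3.56 and 11.27. Of 98 tests of these markers, 70 were lower in the center than in day 0 skin, beside 29.9% of the tests of all genes. Between locations, 62 of 98 were higher at the edge than in the center, beside 12.5%. Over the 29 states it had an r of 0.90 with EGLN3, 0.78 with BNIP3, 0.75 with ANKRD37, 0.73 with PDK1, 0.55 with NDRG1 and -0.67 with ADM. Within the 14 edge states, where the means of these markers ran from 9.30 to 11.79, r was -0.05 for EGLN3 and -0.09 for BNIP3, while within the 14 center states it was 0.77 and 0.67. For the other genes the center r was 0.27 (ANKRD37), 0.24 (PDK1), 0.23 (NDRG1), -0.93 (PGK1), -0.78 (ADM) and -0.68 (VEGFA). In the same order the edge r was 0.28, 0.25, -0.38, -0.45, -0.46 and -0.58. Without the 7 libraries that stand apart the edge means ran from 10.53 to 11.79, and r was 0.90 and 0.81 over the 29 states, -0.26 and -0.19 at the edge, and 0.78 and 0.71 in the center for EGLN3 and BNIP3. A list of basal keratinocyte markers (7 of 8 found) had an r of 0.88 with EGLN3 and 0.75 with BNIP3 over the 29 states. Within the edge states its r was 0.06 and 0.11, and 0.51 with NDRG1, and without the 7 libraries these were 0.02, 0.14 and 0.70. In bulk tissue, fewer keratinocytes and less RNA of a gene per keratinocyte cannot be told apart, and the part of the keratinocyte share in the center values was not tested.

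**Figure D4:**
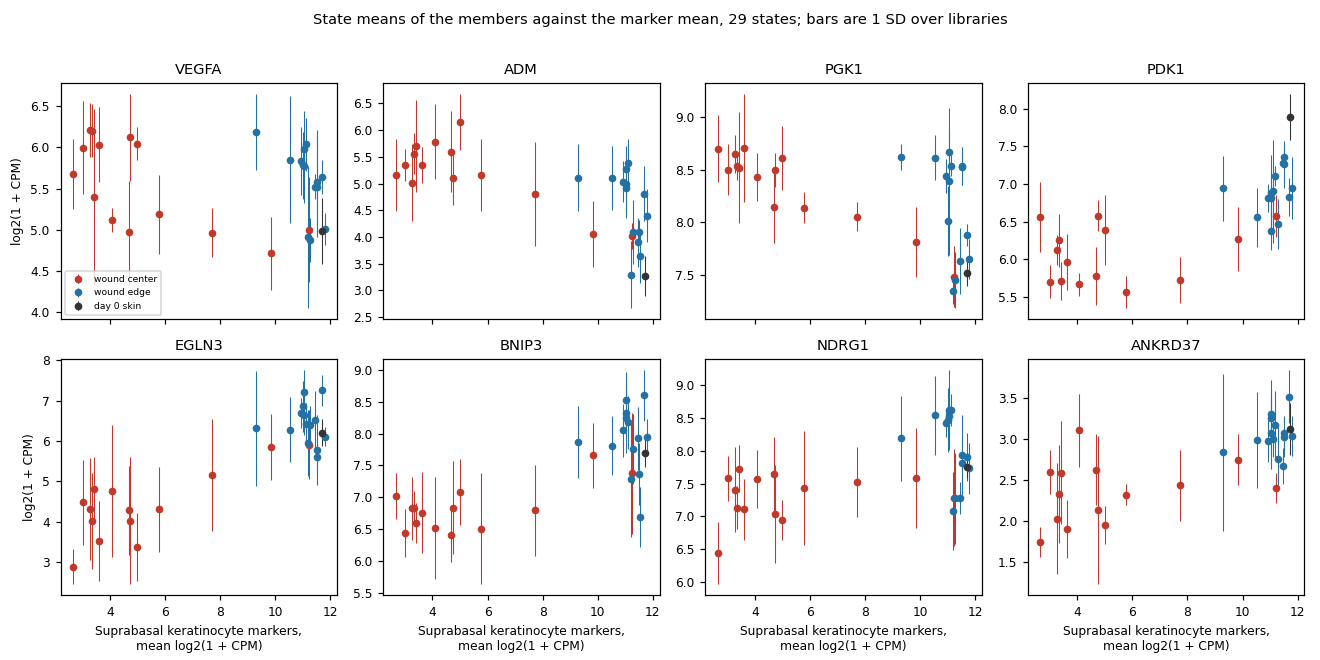
State means of each gene against the mean of the suprabasal keratinocyte markers, both as log2(1 + CPM), for 14 center states (red), 14 edge states (blue) and day 0 skin (black); bars are 1 SD over the libraries of a state. EGLN3 is low where the markers are low, with r = 0.90 over the 29 states, and ADM is high there, with r = -0.67.

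Endothelial markers were higher in the center than in day 0 skin in 112 of 112 tests and those of neutrophils and monocytes in 120 of 123. Of the tests of all genes, 29.8% were higher in this comparison. The endothelial markers (8 of 8 found, none at 0 throughout any state) had list means of 4.90 to 5.39 in day 0 libraries, 6.02 to 7.48 in center libraries and 4.04 to 7.13 in edge libraries, and r over the 29 states was 0.81 with ADM and 0.33 with VEGFA. The neutrophil and monocyte markers (9 of 9 found, none at 0 throughout any state) had means of 1.68 to 2.14 in day 0 libraries, 2.38 to 8.52 in center libraries and 2.50 to 8.42 in edge libraries, and r was 0.85 with PGK1, 0.72 with ADM and 0.63 with VEGFA. The adipocyte markers (6 of 7 found, none at 0 throughout any state) had means of 3.36 to 6.85 in day 0 libraries, 8.66 to 10.43 in the day 1 center, 0.59 to 10.43 in all center libraries and 0.53 to 9.75 in edge libraries. Their r with VEGFA was 0.71 over the 29 states, 0.79 in the center and 0.59 at the edge, and within the 14 center states it was -0.84 with EGLN3, -0.78 with NDRG1 and -0.77 with ANKRD37. Without the 7 libraries r with VEGFA was 0.67 over the 29 states for the adipocyte markers and 0.64 for those of neutrophils and monocytes, with which PGK1 had 0.86 and ADM 0.69, and ADM had 0.81 with the endothelial markers. Within the 14 edge states, r with the endothelial markers was 0.77 for BNIP3, 0.61 for EGLN3 and -0.07 for ANKRD37. Within the 14 center states it was -0.66, -0.76 and -0.30. NDRG1 had an r of 0.80 with the neutrophil and monocyte markers at the edge and -0.03 in the center. The part of these cell types in the levels of the members was not tested.

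The list of HIF subunits and their regulators, the transducers of the response, had 10 symbols, of which 9 were tested. In the center 43 of 126 tests were higher than day 0 and 53 lower (34.1% and 42.1%, beside 29.8% and 29.9% of all genes), and at the edge 30 were higher and 44 lower (23.8% and 34.9%, beside 22.5% and 20.7%). HIF1A and EPAS1, the alpha subunits of HIF1 and HIF2, were higher in the center on all 14 days, with median log2 differences of 1.06 and 1.49, and on 9 and 12 days at the edge. EGLN1, the main prolyl hydroxylase at normal oxygen, was lower in the center on 14 days (median -1.51) and HIF3A, an alpha subunit that can restrain the others, on 14 days (median -2.99). VHL, which tags hydroxylated HIF alpha for destruction, was higher on 4 days. HIF alpha subunits are controlled mainly at the protein level, which was not measured.

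Receptors and relatives of VEGFA and ADM were mostly higher. All 12 were tested, with 117 of 168 tests higher and 8 lower in the center (69.6% and 4.76%, beside 29.8% and 29.9% of all genes, with a median of 1.06) and 94 higher and 3 lower at the edge (56.0% and 1.79%, beside 22.5% and 20.7%). KDR, the main signalling receptor of VEGFA, was higher in the center on 14 days (median 2.23), FLT1, its decoy-like receptor, on 11 (median 0.69), and the adrenomedullin receptor parts CALCRL and RAMP2 on 14 days each (medians 1.11 and 1.24). Between edge and center 59 tests of the list were lower at the edge and 6 higher (35.1% and 3.57%, beside 11.0% and 12.5%), and KDR was lower on 11 days. The endothelial markers, none of which is in this list, moved with it: 112 of 112 tests were higher in the center and 98 of 112 at the edge than in day 0 skin, and 74 of 112 were lower at the edge than in the center. Their part in the receptor levels was not tested.

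Other genes of glycolysis and lactate transport followed PGK1 rather than PDK1. With 15 of 18 symbols tested, 132 of 201 tests were higher and 3 lower in the center (65.7% and 1.49%, beside 29.8% and 29.9% of all genes, with a median of 0.66). At the edge 128 of 204 were higher and 1 lower (62.7% and 0.49%, beside 22.5% and 20.7%). The glucose transporter SLC2A3 was higher in the center on 14 days (median 3.97), as were the lactate exporter SLC16A3 (3.85), the glycolytic activator PFKFB3 (1.92) and lactate dehydrogenase LDHA (1.64), while ENO1 was higher on 13 (1.08) and hexokinase HK2 on 3 (0.15). The relatives of PDK1, EGLN3 and CA9, 5 of 5 tested, had 4 of 70 tests higher and 31 lower in the center (5.71% and 44.3%, beside 29.8% and 29.9%). PDK3, a kinase of the same family, was lower on 12 days (median -0.58), and PDK4, another, had a median difference of -0.11.

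A further list of 22 hypoxia-induced genes, 21 of them tested, had 124 of 294 tests higher and 82 lower in the center (42.2% and 27.9%, beside 29.8% and 29.9% of all genes, with a median of 0.29) and 114 and 69 at the edge (38.8% and 23.5%, beside 22.5% and 20.7%). Heme oxygenase HMOX1 and the collagen-modifying enzymes PLOD2 and P4HA1 were higher in the center on 14 days each, with medians of 4.39, 3.89 and 1.40, as were the lipase inhibitor ANGPTL4 on 9 (1.93) and the growth inhibitor DDIT4 on 8 (0.89). The histone demethylase KDM3A and INSIG2, a regulator of sterol synthesis, were lower on 14 days each (-0.94 and -1.18), and BNIP3L, the closest relative of BNIP3, on 12 (-0.45). FAM162A, named here after its values were seen, was lower in the center on 7 days and higher on 2, but higher at the edge on 13.

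**Figure D5:**
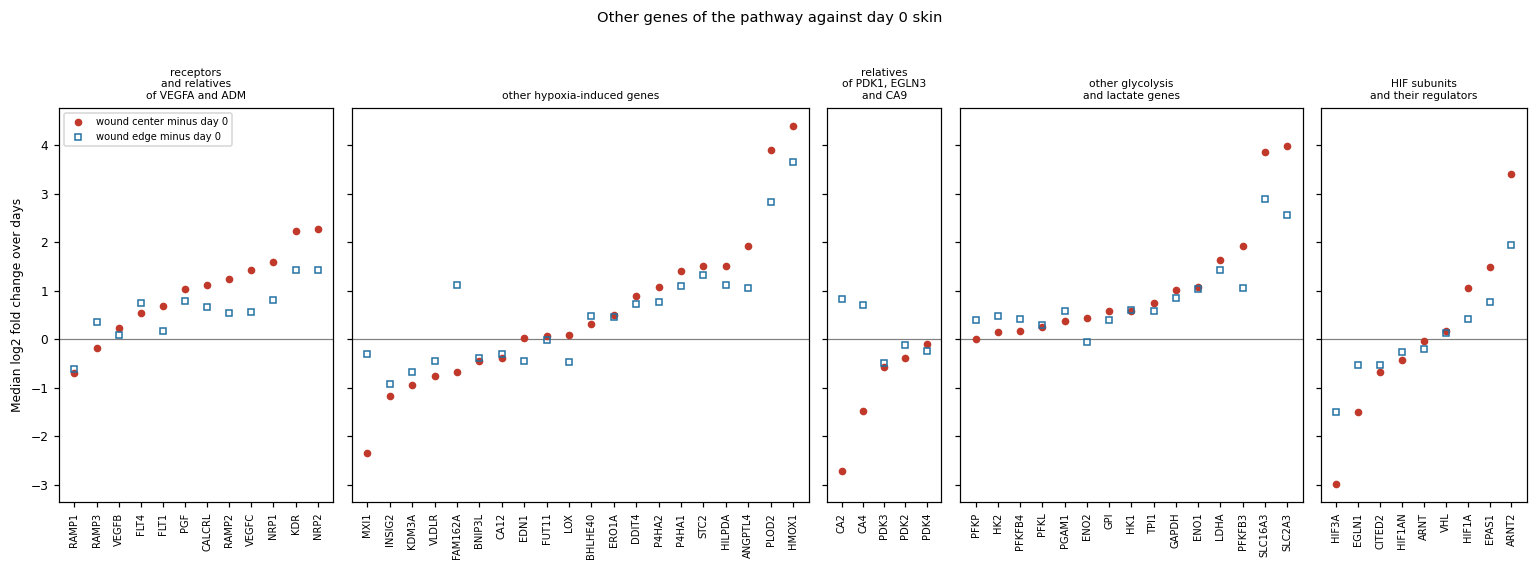
Median over days of the log2 difference from day 0 skin for other genes of the pathway, in the wound center (red points) and at the wound edge (blue squares), grouped by list. SLC2A3 and SLC16A3 reach 3.97 and 3.85 in the center, HIF3A lies at -2.99, and FAM162A is negative in the center and positive at the edge.

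The row named P3H1 with a protein match to SLC2A1, the basal glucose transporter, cannot be assigned to either gene, since the name and the match disagree. Its level was 150, 193 and 243 CPM in day 0 skin, 17.1, 43.1 and 72.1 CPM in the day 2 center and 203, 365 and 455 CPM at the day 2 edge. It was lower than day 0 in the center on 9 days and higher at the edge than in the center on 9 days, by at most 3.01 ± 0.29 on day 2 (adjusted p = 4.27e-06).

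Some rows share ground with others. PGK1 overlaps TAF9B, ANKRD37 overlaps UFSP2 and PDK1 overlaps an unnamed gene, each on the opposite strand, and whether reads were counted by strand is not given in the sources used here. The mean counts of these neighbours were 457, 329 and 1.23 per library, beside 5945 for PGK1, 110 for ANKRD37 and 1802 for PDK1. Reads of the overlap would weigh most for ANKRD37, the gene with the lower count of its pair.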

How the data were processed

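Raw counts per gene and library, without normalization, were deposited by the authors. Their sequencing provider enriched poly-A RNA, sequenced read pairs, removed reads of low quality and aligned the rest to a reference genome. The aligner, counting tool and genome build are not given in the sources used here, and contig coordinates are those of the deposited table. A deposited FPKM table was not used. Counts were compared with edgeR 4.0.16 in R 4.3.3 with TMM scaling. Genes were kept by filterByExpr at its count minimum of 10 and total of 15, the quasi-likelihood test was used, and p was adjusted by Benjamini-Hochberg over every gene tested, at a threshold of 0.05. Each fit used only the states compared. The SE is the log2 fold change divided by the square root of the F statistic. CPM is the count divided by the library total and multiplied by 1e6, with a pseudocount of 1 on the log2 scale. Levels, counts of calls and figures were made with Python 3.11.15, pandas 2.3.3, numpy 2.4.6 and matplotlib 3.10.9. Some of the single-day fits were tried on simulated counts of independent libraries, which did not hold the shared animals and wounds of the data.

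The 8 genes, the pathway lists, the marker lists and the tests were chosen with earlier results of these data known. Beside the members, the text names a preset choice of genes from the pathway lists, the gene of each list called on the most days in each direction (not all ties were named), the gene most similar to each member and genes most similar to their mean. A few genes that this rule names are not reported here. Gene names came from the name column (12300 genes) or else from the protein match (9387 genes). No row was matched to PKM and ZNF395 of the pathway lists and to KRT14, LOR, MYH1 and FABP4 of the marker lists, and ALDOA, ALDOC and EGLN2 passed the filter in no comparison.

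Most states hold 2 wounds of each of 3 animals, so the p-values measure the spread between these samples, not between independent animals. Edge and center biopsies of a wound deviated from their state means together, with a mean r of 0.270 across 14081 genes, above 0.1 in 58 of 72 wounds, and share the animal by label. In comparisons with day 0 the animal block rests on the 3 animals that both groups share. No pair of replicates agreed within sampling noise (lowest chi-square per degree of freedom 21.5). Alternatives were DESeq2 1.42.0, library size without TMM, no filter, the animal or the wound as replicate block, the 2 wounds of an animal summed, all 150 samples in one fit, another pseudocount or TMM scaling for the levels, each replicate left out in turn, and leaving out the 7 libraries that stand apart or the 21 rich in muscle markers.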

Additional observations from a re-analysis of the deposited data

Results flagged for a closer look

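Among the 168 tests of a highest or lowest library in the states of 6, for 8 genes, 10 pairs of a gene and a library, in 9 libraries, lay apart from the replicates when the gap was divided by the range (Dixon's test). Chance alone gives about 1 in 20 groups, or 8.4 here. All values that follow are log2(1 + CPM).

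Of these pairs, 5 lay in 4 libraries already known to stand apart. ANKRD37 in replicate 4 of the day 3 center was 3.95 against 1.44 to 1.89 in the others (ratio 0.823). EGLN3 in replicate 6 of the day 3 edge was 3.52 against 6.17 to 7.26 (ratio 0.707), and NDRG1 in the same library was 6.96 against 8.16 to 8.84 (ratio 0.641). BNIP3 in replicate 1 of the day 11 center was 8.04 against 5.89 to 6.65 (ratio 0.646), and PGK1 in replicate 5 of the day 9 center was 9.56 against 8.08 to 8.42 (ratio 0.767). In the first 4 of these cases the suprabasal keratinocyte markers of the library lay outside the range of its replicates too, and in the last the skeletal muscle markers did, with 10.72 against 0.49 to 2.21. Their part in the values was not tested.

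The remaining 5 pairs were in 5 other libraries. ADM was 6.26 in replicate 3 of the day 4 edge against 5.06 to 5.39 (ratio 0.730) and 5.92 in replicate 1 of the day 7 center against 5.10 to 5.32 (ratio 0.733). PDK1 was 5.74 in replicate 4 of the day 5 center against 6.13 to 6.28 (ratio 0.726) and 7.31 in replicate 5 of the day 6 edge against 6.20 to 6.60 (ratio 0.637). BNIP3 was 6.32 in replicate 4 of the day 2 center against 7.00 to 7.34 (ratio 0.670).

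For 3 genes the change from days 15 to 21 to days 1 to 4 differed between center and edge in a test of the difference itself (edgeR, quasi-likelihood). It was -0.33 on the log2 scale for PGK1 (adjusted p = 0.0272), -1.53 for EGLN3 (adjusted p = 0.0152) and -1.44 for NDRG1 (adjusted p = 7.28e-05). Without replicate 1 or replicate 3 of every state NDRG1 alone was called.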

How the results depend on the processing

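No call of a gene on a single day changed direction under any alternative, and of the summary counts 195 were rated as the same and 13 as moved. The 13 do not include the animal block, which lost 13 center and 16 edge calls against day 0 and gained 1 and 0. Of the other results 1025 were rated as the same, 28 as moved, 35 as weaker and 5 as stronger, and 11 changed sign. Between edge and center within a day, the 4 lower calls became 8 with DESeq2 and 2 with the wounds of an animal summed. In the latter setting 7 calls of either direction were lost and 0 gained. Averaged over days, the 2 lower calls became 1 without the 7 libraries that stand apart. Without TMM, the early against late lower calls fell from 4 to 2 in the center and from 1 to 0 at the edge, where that scaling moved the median of all genes by 0.29 and 0.24. It moved this median by -0.18 to 0.17 in the center comparisons and by -0.26 to 0.11 in the edge comparisons with day 0. With the wound as replicate block, 46 tests were higher at the edge and 4 lower, against 40 and 4, with 6 gained (ANKRD37 on days 4, 9 and 11, BNIP3 and EGLN3 on day 16, PDK1 on day 6) and 0 lost, and the early against late difference between locations was called for 4 genes in place of 3. The block changed no other call of these comparisons. With all 150 samples in one fit, 9 center calls against day 0 were lost and 3 were gained. At the edge 11 calls against day 0 were lost and 0 gained, and between edge and center 1 was lost and 6 were gained.

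With each replicate left out in turn, higher and lower calls ranged from 32 to 34 and 40 to 49 (center against day 0), 40 to 47 and 14 to 17 (edge against day 0), 32 to 39 and 3 to 4 (edge against center), and stayed at 5 and 2 averaged over days. Early against late they ranged from 3 to 3 and 1 to 4 in the center, 1 to 4 and 0 to 1 at the edge, and 0 to 0 and 1 to 4 for the difference. The lower center calls were 1 without replicate 1 and 2 without replicate 2, the higher edge calls 1 without replicate 2 or 3, the lower edge calls 0 without replicate 1 or 4, and the calls of the difference 1 without replicate 1 or 3. Each such setting leaves out that replicate number in every state.

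Values that changed sign did not pass the threshold in either setting. VEGFA averaged over days ranged from -0.0164 to 0.1493 as replicates were left out. PDK1 early against late at the edge ranged from -0.0912 to 0.0081 and was 0.20 without TMM, and ANKRD37 in the same comparison ranged from -0.3313 to 0.1082 and was 0.15 without TMM. The BNIP3 difference between locations ranged from -0.0550 to 0.0435 and was -0.0139 with no filter, -0.16 without the libraries that stand apart and -0.13 without those rich in muscle markers. The cause was not tested. Depth limits ANKRD37 most, which had 16 to 363 counts per library.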
